A study of Mus musculus with 18 samples.

Results

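The frontal cortical RNA of 6 APP/PS1 mice, a transgenic model of amyloid deposition, was compared across all genes with that of 5 wild-type (WT) mice. These 11 mice were chosen from the 18 mice of the series by their genotype labels: all 6 APP/PS1 mice (3 females, 3 males) entered, together with 2 female and 3 male WT mice. WT mouse 19622, a female, was set apart because its cerebellar marker genes summed to 3342 CPM (normalized counts scaled to a common library size), against 23.3 to 28.9 CPM in the other 5 WT mice. The transgenes of the APP/PS1 mice include a mutant amyloid precursor protein driven by the mouse prion protein promoter. By the study's methods they also carried floxed alleles of the farnesyltransferase (FT) β-subunit gene Fntb and no Cre. The study's methods describe the WT mice as FT-floxed, Cre-negative littermates, whereas the series description calls them C57BL/6J; the 2 accounts were not reconciled here. The 6 APP/PS1/FTnKO mice, which carry the same transgenes and lack Fntb in forebrain neurons through a CaMKIIα promoter-driven Cre, entered the statistical model to estimate the spread and are given only as side-by-side values. All mice were 9 to 10 months old.

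Amyloid plaques draw in microglia, the resident macrophages of the brain. Microglia around a plaque are known to engage the lipid-sensing receptor TREM2 and its adaptor TYROBP, to lower their resting-state genes, and to raise genes for phagocytosis, lysosomal digestion and lipid handling. Astrocytes near plaques become reactive and increase the filament protein GFAP, and complement proteins of both cell types coat synapses and debris. In bulk tissue, more cells of a type and more RNA per cell cannot be told apart, which holds for every gene below.

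Each mouse contributed 15925432 to 20703587 assigned reads in the APP/PS1 group and 16452173 to 20602274 in the WT group. A gene is called when its edgeR quasi-likelihood test, with sex as a covariate and Benjamini-Hochberg adjustment over all tested genes, gave an adjusted p below 0.05. The RNA integrity number (RIN) differed between the groups: it was 7.7 to 8.7 in APP/PS1 mice, with a median of 8.2, and 8.5 to 8.8 in WT mice, with a median of 8.7. Its part in the results was not tested, and values with RIN in the model are given below. Excitatory neuron markers, which the cortex shares with other forebrain regions, summed to 5228 to 7399 CPM in APP/PS1 mice and 5791 to 7652 CPM in WT mice. Striatal markers summed to 798 to 2111 CPM in APP/PS1 mice, highest in mice 19553 and 19554, and to 822 to 1594 CPM in WT mice.

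The response was mostly an increase. Of 17414 tested genes, 230 were called higher in APP/PS1 mice (1.32%) and 31 were called lower (0.178%). The increases were also larger: 44 genes differed by a log2 fold change of 2 or more, 76 by 1 to 2, 74 by 0.5 to 1 and 36 by less, with a median of 1.04. Among the 31 lower genes, 4 differed by -1 or beyond, 8 by -0.5 to -1 and 19 by less, with a median of -0.43. The median over all tested genes was near 0. As a description, since the calls rest on the same values, every APP/PS1 mouse lay above every WT mouse for 169 of the 230 higher genes, against 297 of all tested genes (1.71%), and below every WT mouse for 19 of the 31 lower genes, against 121 of all tested genes (0.695%). With mouse 19622 included, 196 genes were called higher and 11 lower. The total of 261 called genes rose to 465 without APP/PS1 mouse 19744 and fell to 124 without WT mouse 19053. When each mouse was left out in turn, 116 of the 230 higher genes stayed called in all 11 fits, and 1 lower gene, Chrnb3, did. Called genes of both directions together made up 0.909% to 2.32% of the tested genes of each autosome and the X chromosome.

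**Figure D1:**
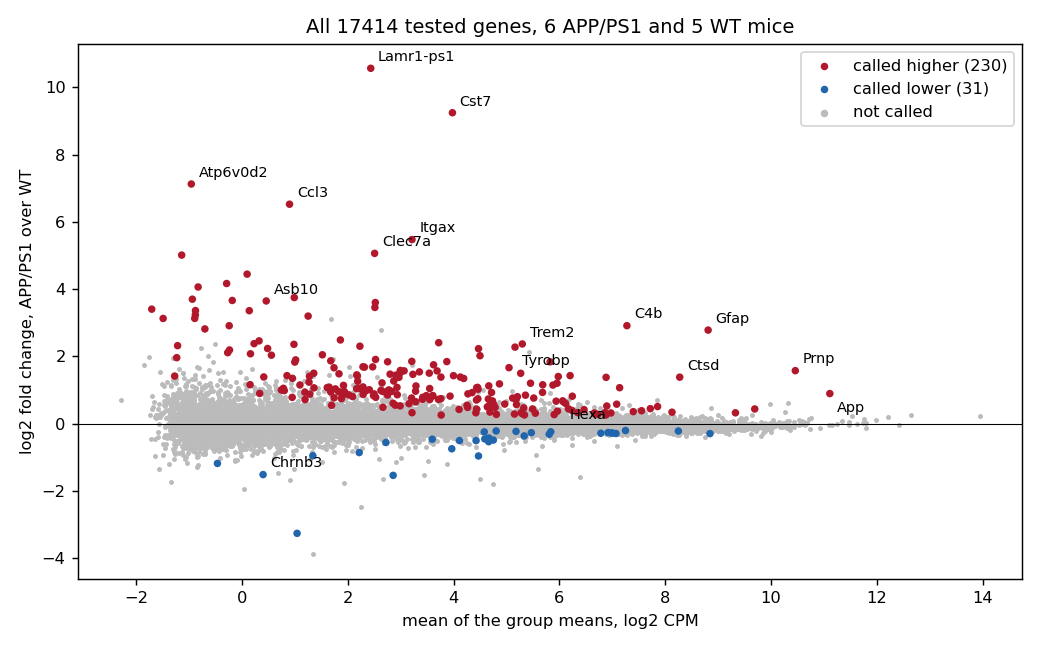
Log2 fold change of APP/PS1 over WT mice against the mean level in log2 CPM, with 1 point per tested gene. Red points are the 230 genes called higher, blue points the 31 called lower and grey points the rest; the fitted values of Lamr1-ps1 and Atp6v0d2, which had no WT count, depend on the prior count and are not bounds.

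The transgenes were read first as a check of the genotype labels. App, the gene of the amyloid precursor protein, measured 1492, 1558, 1499, 1613 and 1509 CPM in the 5 WT mice and 2362 to 3095 CPM in the 6 APP/PS1 mice. The groups did not overlap, and the log2 fold change was 0.89 ± 0.09 (SE), with an edgeR adjusted p of 6.7e-05. Prnp, the prion protein gene on chromosome 2 (GRCm38, 131909928 to 131938429, plus strand), measured 658 to 768 CPM in WT and 1983 to 2333 CPM in APP/PS1 mice. Its log2 fold change of 1.58 ± 0.08 had the smallest adjusted p of all genes, 2.71e-09 by edgeR. Lamr1-ps1, a processed pseudogene that ends 4968 bases before the start of Prnp, had 0 counts in every WT mouse and 103 to 255 counts in each APP/PS1 mouse. Against the limit of 3 counts over the 5 WT mice together, it was at least 327-fold higher. Reads of a transgene that holds Prnp sequence cannot be told apart from reads of the endogenous locus in these counts. Fntb, the gene of the FT β-subunit, did not separate the 2 genotypes: it measured 14.1, 16.9, 16.8, 32.2 and 30.8 CPM in WT mice 18944, 19053, 19101, 19718 and 19721, and 14.3, 28.7, 32.1, 14.2, 14.6 and 17.1 CPM in APP/PS1 mice 16975, 19553, 19554, 19619, 19723 and 19744. In each group some mice lay at 17.1 CPM or less and the others at 28.7 CPM or more, and the 6 APP/PS1/FTnKO mice measured 7.84 to 14.7 CPM. WT mouse 18944 and APP/PS1 mice 16975, 19619 and 19723 lay within that range. The floxed genotype of single mice was not checked here, and the cause of the split was not tested.

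Genes of plaque-associated microglia gave the most calls of the 29 gene lists. Of 38 listed genes, all tested, 27 were called higher and none lower, where 1.32% of all genes were called higher, and the list median was a log2 fold change of 1.39. Cst7, which encodes the cysteine protease inhibitor cystatin F, is the leading member. It was read 4 times in the 5 WT mice together, in 2 of them, and measured 53.4, 30.8, 33.8, 24.9, 34.4 and 11.7 CPM in APP/PS1 mice 16975, 19553, 19554, 19619, 19723 and 19744. Every APP/PS1 mouse stood far above every WT mouse, and mouse 19744 was the lowest of the 6. The ratio of the mean APP/PS1 level to the pooled WT level was 714, with a 95% exact Poisson interval of 279 to 2620 that covers the counting error of the WT reads only (edgeR adjusted p = 1.2e-06). Of the 4 WT reads, 3 came from mouse 18944, and without that mouse the ratio was 2320 (417 to 91800).

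The receptor genes of the same program followed. Itgax, which encodes the integrin CD11c, measured 0.122 to 0.62 CPM in WT and 7.88 to 26.3 CPM in the 6 APP/PS1 mice, giving a log2 fold change of 5.47 ± 0.48 (edgeR adjusted p = 5.83e-06). Clec7a, the gene of the β-glucan receptor dectin-1, measured 0.122 to 0.556 CPM in WT and 4.70 to 17.4 CPM in the 6 APP/PS1 mice, giving a log2 fold change of 5.06 ± 0.49 (edgeR adjusted p = 2.47e-05). Neither receptor gene overlapped between the groups.

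Trem2 and its adaptor Tyrobp, which signal together on the microglial surface, were expressed in both groups. Trem2 measured 13.9, 10.0, 11.5, 12.9 and 13.1 CPM in the WT mice, and 30.3, 73.9 and 87.4 CPM as the lowest, median and highest APP/PS1 value. Tyrobp measured 10.9 to 14.3 CPM in WT and 29.7 to 84.1 CPM in APP/PS1 mice. The log2 fold changes were close to each other, 2.37 ± 0.26 for Trem2 and 2.28 ± 0.25 for Tyrobp, with edgeR adjusted p-values of 9.59e-05 and 9.9e-05. Gpnmb, which encodes a transmembrane glycoprotein of phagocytes, rose by a log2 fold change of 2.41 ± 0.34, and Spp1, the osteopontin gene, by 1.84 ± 0.28. With mouse 19622 included, Spp1 was no longer called (edgeR adjusted p = 0.35). Cybb, the catalytic subunit of the phagocyte NADPH oxidase, rose by 1.83 ± 0.32.

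Ccl3 and Ccl4, 2 chemokine genes picked after their values were seen, were close to undetected in WT mice. Ccl3, whose product attracts monocytes, was read 3 times in all WT mice together and measured 0.94 to 9.44 CPM in APP/PS1 mice, a ratio of 112 (95% exact Poisson interval 38.2 to 541). All 3 reads came from WT mouse 19101, and against the limit of 3 counts over the other 4 WT mice Ccl3 was at least 91.5-fold higher. Mouse 16975 held the 9.44 CPM, and the other APP/PS1 mice held 3.53 CPM or less. Ccl4, its neighbour on chromosome 11, was read 2 times in WT mice and measured 0.235 to 2.24 CPM in APP/PS1 mice, a ratio of 40.3 (11.1 to 332). Both reads came from WT mouse 19718, and without it Ccl4 was at least 20.9-fold higher by the same limit. Atp6v0d2, a subunit of the vacuolar proton pump, had 0 counts in every WT mouse and 3 to 48 counts in the APP/PS1 mice, and was at least 31.1-fold higher against the limit of 3 counts over the 5 WT mice. Asb10, an ankyrin-repeat gene, rose from 0.187 ± 0.0554 CPM (SD, n = 5) to 2.56 ± 1.07 CPM (SD, n = 6). Apobec1, an RNA-editing cytidine deaminase, rose from 1.56 ± 0.204 to 5.12 ± 1.45 CPM (SD, n = 5 and 6).

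**Figure D2:**
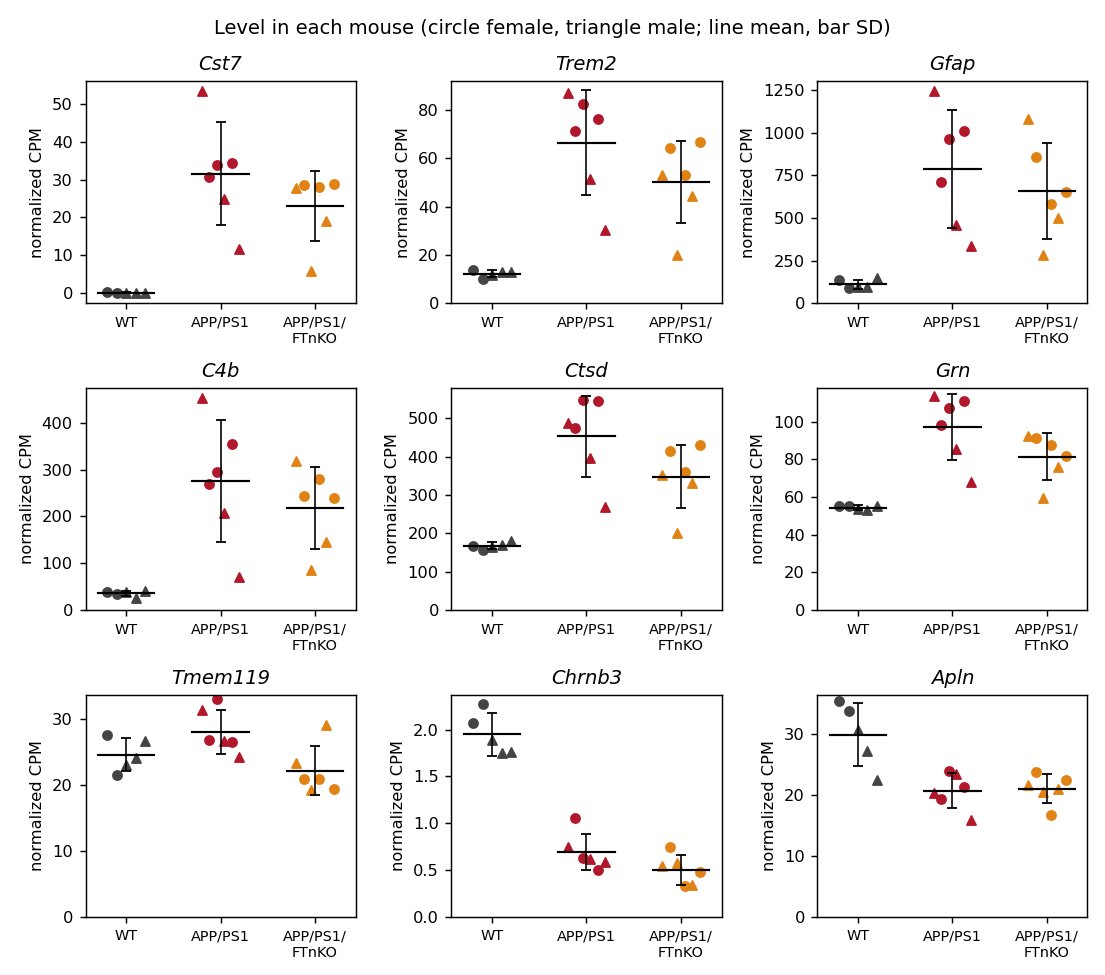
Normalized CPM of 9 genes in each mouse of the 3 genotypes, with circles for females and triangles for males; the line is the mean and the bar the SD. Cst7, Trem2, Gfap, C4b, Ctsd and Grn lie higher in every APP/PS1 mouse than in any WT mouse, Chrnb3 lies lower in every one, and Tmem119 and Apln overlap.

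Not every microglial gene moved. Of 14 genes of resting microglia, 7 were called higher, where 1.32% of all tested genes were, and none lower, with a list median of 0.52. Fcrls, an Fc receptor-like scavenger gene, measured 15.1 to 22.8 CPM in WT and 34.1 to 71.2 CPM in APP/PS1 mice (log2 fold change 1.50 ± 0.18, edgeR adjusted p = 0.000255). Olfml3 rose by 0.93 ± 0.16 and Siglech by 0.70 ± 0.13. The genes of the fractalkine receptor Cx3cr1 and the colony-stimulating factor 1 receptor Csf1r rose by 0.60 ± 0.13 and 0.58 ± 0.11. The standard identity genes Tmem119 and P2ry12 overlapped between the groups and were not called. Tmem119 measured 27.5, 21.6, 23.04, 24.04 and 26.7 CPM in WT mice and 24.2, 26.7 and 32.96 CPM as the lowest, median and highest APP/PS1 value, a log2 fold change of 0.20 ± 0.11 (edgeR adjusted p = 0.416). P2ry12, the purinergic receptor that guides resting processes, measured 29.6 to 44.0 CPM in WT and 40.8 to 47.2 CPM in APP/PS1 mice (log2 fold change 0.22 ± 0.11, edgeR adjusted p = 0.374). None of the 14 was called lower.

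The transcription factor genes Irf8, Spi1 and Stat3 were picked after their values were seen, and no list of regulators was fixed. Irf8, a transcription factor of microglial identity and activation, measured 4.0 to 6.39 CPM in WT and 8.17 to 19.6 CPM in APP/PS1 mice (log2 fold change 1.54 ± 0.22, edgeR adjusted p = 0.000732). Spi1, which encodes the myeloid factor PU.1, rose by 0.94 ± 0.23 and lay just inside the threshold (edgeR adjusted p = 0.0484), with overlapping groups. Stat3, a signal transducer of glial reactivity, rose by 0.39 ± 0.07. Apoe, the major lipid carrier of the brain and a member of the plaque-associated list, measured 885 to 1130 CPM in WT and 1076 to 1961 CPM in APP/PS1 mice. It lay just outside the threshold, with a log2 fold change of 0.61 ± 0.15 and an edgeR adjusted p of 0.056.

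Phagocytes recognise antibody-coated and lipid cargo through Fc and pattern receptors. Of 20 listed genes 17 could be tested, and 10 were called higher, where 1.32% of all tested genes were, with a median log2 fold change of 1.05. With RIN in the model 4 were called higher. Tlr2, a receptor of lipoproteins and fibrillar peptides, measured 0.887 to 1.35 CPM in WT and 2.70 to 6.33 CPM in APP/PS1 mice (2.05 ± 0.28, edgeR adjusted p = 0.000644). The activating Fc receptors Fcgr1 and Fcgr3 rose by 1.04 ± 0.17 and 1.34 ± 0.19, their shared signalling chain Fcer1g by 1.50 ± 0.21, and the inhibitory receptor Fcgr2b by 1.52 ± 0.28. The Fc receptor genes are similar in sequence, and reads shared among them could not be separated here.

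Complement genes were called at the start of the classical pathway and at a receptor. Of 16 listed genes 15 were tested and 4 were called higher, where 1.32% of all tested genes were, with a median of 0.37. C4b, the cleaved component of the classical pathway, measured 39.0, 34.2, 37.5, 25.9 and 40.4 CPM in WT mice and 453, 269.8, 295, 206, 354 and 70.4 CPM in the APP/PS1 mice, again in mouse order. The lowest APP/PS1 value, in mouse 19744, was above the highest WT value, and the log2 fold change was 2.91 ± 0.38 (edgeR adjusted p = 0.00042). C4b has a near-identical neighbour, C4a, and the division of reads between them is uncertain. C3ar1, the receptor of the C3a fragment, rose by 2.30 ± 0.29. Of the 3 chains of C1q, which starts the pathway, C1qa rose by 1.43 ± 0.20 and C1qc by 1.16 ± 0.25. The C1qc call was lost with RIN in the model (edgeR adjusted p = 0.352), with only mice of RIN 8 or more (edgeR adjusted p = 0.0843), with limma-voom (adjusted p = 0.0607), on the 2 genotypes alone (edgeR adjusted p = 0.0554), and without any 1 of 6 mice: APP/PS1 mouse 16975 or 19723, or WT mouse 18944, 19053, 19718 or 19721. C1qb measured 32.6 to 46.5 CPM in WT and 37.9 to 146 CPM in APP/PS1 mice and was not called (0.91 ± 0.27, edgeR adjusted p = 0.128). Its value was 0.50 without mouse 16975 and 0.44 with RIN in the model, and edgeR called it without a filter on low counts and without mouse 19619 or 19744. The difference between the chains was not tested.

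Antigen presentation and interferon genes gave few calls, where 1.32% of all tested genes were called higher. None of 16 genes of class I presentation was called (median 0.37, and 0.03 with RIN in the model); by edgeR H2-D1 had a log2 fold change of 0.97 ± 0.36 and H2-K1 of 0.62 ± 0.35, with adjusted p-values of 0.229 and 0.443. Both are members of a family of near-identical genes, and their values overlapped between the groups. Of 6 tested class II genes, Cd74, the invariant chain that escorts class II molecules, was called: it measured 4.03 to 7.22 CPM in WT and 10.5 to 27.6 CPM in APP/PS1 mice (1.75 ± 0.28, edgeR adjusted p = 0.002). The class II chains H2-Aa and H2-Ab1 had 0.85 ± 0.35 and 1.28 ± 0.33 and were not called. Of 23 tested interferon-response genes, the chemokine gene Cxcl10 was called higher (2.19 ± 0.52, edgeR adjusted p = 0.0407), a call that was lost with RIN in the model (edgeR adjusted p = 0.255). The tested list had a median of 0.43, and of 0.23 with RIN in the model, and its leading members Ifit1 and Ifit2 had 0.33 ± 0.26 and -0.06 ± 0.13.

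**Figure D3:**
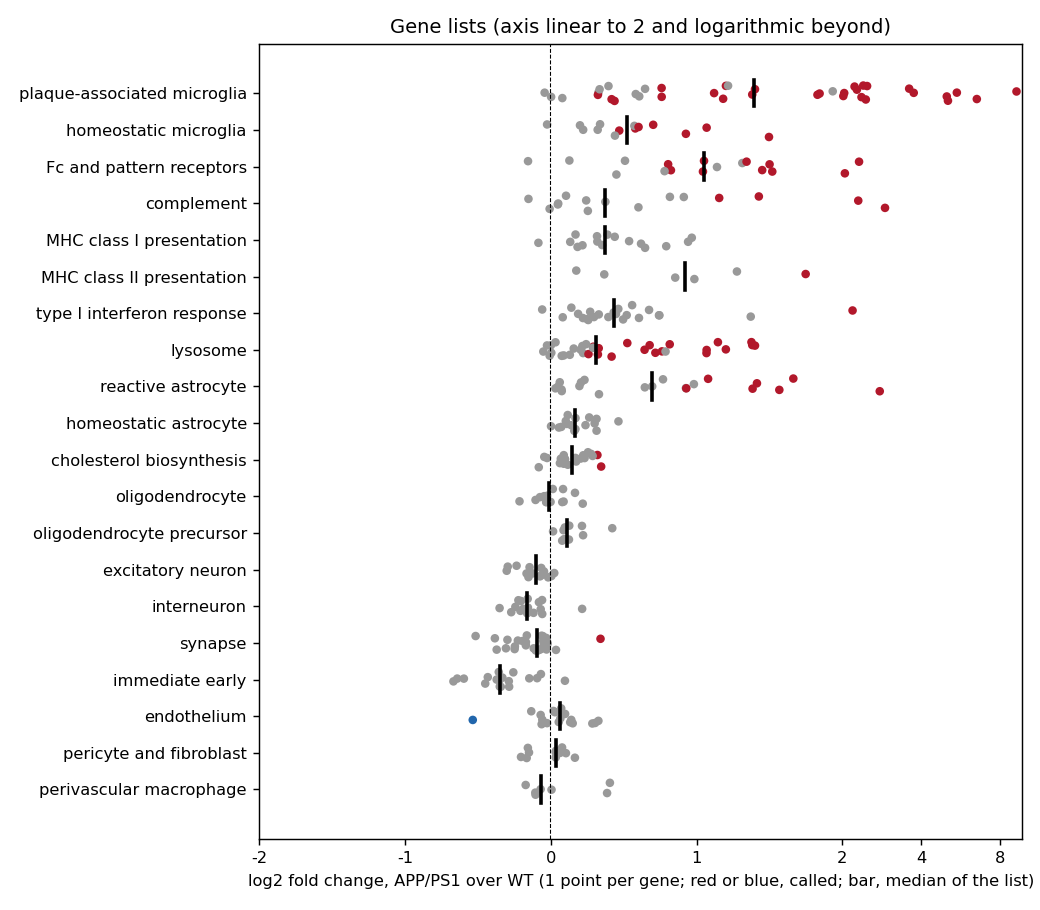
Log2 fold change of every tested member of 20 gene lists, 1 point per gene, with called genes in red (higher) or blue (lower) and a bar at each list's median; the axis is linear up to 2 and logarithmic beyond. Red points gather in the microglial, receptor, lysosome and reactive astrocyte lists, and the neuronal and oligodendrocyte lists hold 1 called gene, Rims1, with medians from -0.35 to 0.11.

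Lysosomal genes encode the acid hydrolases and membrane proteins of cellular digestion. Of 34 genes, all tested, 18 were called higher, where 1.32% of all tested genes were, and none lower, with a median of 0.31. Of the 18, 16 did not overlap between the groups, against 169 of all 230 genes called higher. Calls and overlap rest on the same values. Ctsd, the aspartic protease cathepsin D, measured 166, 156, 164, 169 and 181 CPM in WT mice and 488, 473, 547, 396, 545 and 268 CPM in APP/PS1 mice (1.38 ± 0.16, edgeR adjusted p = 0.000137). Hexa, a lysosomal hydrolase gene, measured 48.8 to 55.4 CPM in WT and 64.9 to 96.2 CPM in APP/PS1 mice (log2 fold change 0.68 ± 0.08, edgeR adjusted p = 0.000217). Ctsz and Ctss, 2 further cathepsins, rose by 1.40 ± 0.17 and 1.38 ± 0.20, and Grn, the progranulin gene, by 0.82 ± 0.11. The membrane glycoprotein gene Lamp2 rose by 0.33 ± 0.06, and Lamp1 overlapped between the groups (0.22 ± 0.07, edgeR adjusted p = 0.185). Plaque-associated microglia and lysosome lists share cathepsins, so their counts are not separate.

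The promoters of these genes were read for 2 short motifs in windows of 250 bases before to 50 bases after the RefSeq start site (GRCm38.p6), chosen after the results were known and described without a test. GAGGAA, a short form of the site that PU.1 binds, was searched on both strands. It was in 26.6% of 15819 windows of tested genes and in 38.9% of windows of genes called higher. Of the 30 windows of genes called lower, 15 (50%) held it. TCACGTG, an E-box found before many lysosomal genes, was in 5.37% of windows of tested genes, in 5.18% of windows of genes called higher and in 31.2% of the windows of the lysosome list. The E-box was before 10 lysosomal genes, of which 4 were called higher, and absent from the windows of 18, of which 11 were called higher. A match says only that these letters occur, and no match only that they do not. The windows of Cst7 and Clec7a, leading microglial genes, and of Ctsd and Lgmn, lysosomal proteases that were called, are printed 5′ to 3′ with matches in capitals. Ctsd and Lgmn were taken from the called lysosomal genes with an E-box. Where a gene had several windows, one with the E-box was printed if there was any. Its presence in Ctsd and Lgmn was therefore fixed by the choice. Cst7 holds neither motif, Clec7a holds GAGGAA starting 96 bases before the start site, Ctsd holds the E-box at 2 places, 245 and 99 bases before it, and Lgmn at 1 place, 50 bases before it.
Cst7 (chr2:150570165-150570464, plus strand): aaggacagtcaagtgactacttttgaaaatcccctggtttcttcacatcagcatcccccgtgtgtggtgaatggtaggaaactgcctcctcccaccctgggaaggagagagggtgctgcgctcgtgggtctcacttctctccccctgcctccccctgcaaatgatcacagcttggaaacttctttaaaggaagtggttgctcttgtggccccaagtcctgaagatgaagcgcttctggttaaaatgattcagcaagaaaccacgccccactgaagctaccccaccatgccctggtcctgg
Clec7a (chr6:129472730-129473029, minus strand): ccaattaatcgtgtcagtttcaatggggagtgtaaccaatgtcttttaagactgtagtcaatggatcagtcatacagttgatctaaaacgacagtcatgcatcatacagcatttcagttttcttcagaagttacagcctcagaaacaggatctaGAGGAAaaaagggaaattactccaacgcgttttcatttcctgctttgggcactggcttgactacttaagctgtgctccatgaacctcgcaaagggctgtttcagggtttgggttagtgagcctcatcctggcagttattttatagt
Ctsd (chr7:142387778-142388077, minus strand): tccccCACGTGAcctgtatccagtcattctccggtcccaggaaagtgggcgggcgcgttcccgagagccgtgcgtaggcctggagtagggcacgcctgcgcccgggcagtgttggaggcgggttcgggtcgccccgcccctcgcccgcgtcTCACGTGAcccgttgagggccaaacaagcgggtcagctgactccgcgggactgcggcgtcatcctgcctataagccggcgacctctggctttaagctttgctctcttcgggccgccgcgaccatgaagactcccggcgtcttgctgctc
Lgmn (chr12:102439043-102439342, minus strand): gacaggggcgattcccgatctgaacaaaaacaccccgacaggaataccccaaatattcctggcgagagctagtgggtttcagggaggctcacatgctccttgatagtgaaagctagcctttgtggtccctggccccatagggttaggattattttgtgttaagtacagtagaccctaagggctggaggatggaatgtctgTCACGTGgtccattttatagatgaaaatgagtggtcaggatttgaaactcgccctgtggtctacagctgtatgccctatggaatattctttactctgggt

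Reactive astrocyte genes rose in part. Of 23 listed genes 21 were tested, and 7 were called higher, where 1.32% of all tested genes were, and none lower. The median was 0.70, against 0.44 with RIN in the model and 0.32 with mouse 19622 included. Gfap, the astrocyte intermediate filament, measured 133, 88.1, 97.5, 93.5 and 147 CPM in WT mice and 1246, 708, 964, 461, 1011 and 335 CPM in APP/PS1 mice. No values overlapped, and the log2 fold change was 2.78 ± 0.35 (edgeR adjusted p = 0.000323). Serpina3n, a secreted protease inhibitor, rose from 13.5 to 18.97 CPM in WT to 22.8 to 74.9 CPM in APP/PS1 mice (1.66 ± 0.26). Osmr, the oncostatin M receptor, rose by 1.38 ± 0.21, and Aspg by 1.57 ± 0.29. Vim, which encodes vimentin, rose by 0.93 ± 0.20 with overlapping groups. Timp1, an inhibitor of matrix proteases, was called with levels under 1 CPM in every mouse (1.41 ± 0.34). With mouse 19622 included, Vim and Timp1 were no longer called, with edgeR adjusted p-values of 0.31 and 0.24.

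None of 16 homeostatic astrocyte genes was called. All 16 had a positive log2 fold change, with a median of 0.16, which was 0.03 with RIN in the model and 0.03 with mouse 19622 included. Aqp4, the water channel of astrocyte endfeet, had 0.46 ± 0.12 (edgeR adjusted p = 0.0536), and Slc1a2, the main glutamate transporter, had 0.00 ± 0.08 (edgeR adjusted p = 0.995).

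Of 20 cholesterol synthesis genes 2 were called higher, where 1.32% of all tested genes were, with a median of 0.14. Of the 20, 17 had a positive value. Nsdhl, a sterol dehydrogenase, measured 20.9 to 24.9 CPM in WT and 26.6 to 31.5 CPM in APP/PS1 mice (0.35 ± 0.06, edgeR adjusted p = 0.00664). Fdft1, squalene synthase, rose by 0.32 ± 0.06 (edgeR adjusted p = 0.0114). The earlier enzymes Acat2 and Hmgcs1 had 0.29 ± 0.07 and 0.20 ± 0.07 and were not called, with edgeR adjusted p-values of 0.0535 and 0.208.

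Myelin and neuronal lists gave almost no calls, where 1.32% of all tested genes were called higher and 0.178% lower. No gene of 14 oligodendrocyte genes was called (median -0.01, and -0.24 with RIN in the model), with Mbp, a myelin protein gene, at 0.09 ± 0.17, and none of 10 oligodendrocyte precursor genes, with Pdgfra at 0.10 ± 0.10 and Cspg4 at 0.21 ± 0.14. No gene of 14 excitatory neuron genes was called (median -0.10, but 0.03 with RIN in the model and 0.11 with mouse 19622 included), among them Slc17a7, the vesicular glutamate transporter, at -0.07 ± 0.12 and Camk2a at 0.02 ± 0.13. No gene of 16 interneuron genes was called (median -0.16, and -0.03 with mouse 19622 included; 1 positive), with Gad1 and Gad2, which make GABA, at -0.22 ± 0.13 and -0.07 ± 0.13. Of 28 synapse genes 1 was called, Rims1, an active-zone scaffold that was higher by 0.34 ± 0.08 with overlapping groups (edgeR adjusted p = 0.0408) and was not called with RIN in the model (edgeR adjusted p = 0.227). Of the 28, 2 had a positive value, and the median was -0.10, against -0.03 with RIN in the model and -0.04 with mouse 19622 included. Syn1 and Syn2, the synapsins, had -0.16 ± 0.08 and -0.05 ± 0.09. Gabrb2, a GABA receptor subunit picked after its values were seen, was lower in every APP/PS1 mouse (49.9 to 99.1 CPM) than in any WT mouse (110.3 to 130.4 CPM), and still missed the threshold (-0.52 ± 0.17, edgeR adjusted p = 0.171).

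Activity-dependent genes had the most negative median of the neuronal lists, -0.35, with 1 of 18 positive and none called. The median was -0.16 with RIN in the model and -0.19 with mouse 19622 included. Their summed level was 1560 to 2152 CPM in WT mice and 1237 to 1797 CPM in APP/PS1 mice, which overlap. Fos had -0.15 ± 0.19 and Fosb -0.60 ± 0.19, with edgeR adjusted p-values of 0.77 and 0.163.

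Among the 31 lower genes, 1 stood apart by its p. Chrnb3, the β3 subunit of nicotinic acetylcholine receptors, measured 2.07, 2.28, 1.89, 1.75 and 1.76 CPM in WT mice and 0.745, 1.05, 0.63, 0.619, 0.504 and 0.588 CPM in APP/PS1 mice. Every APP/PS1 value was below every WT value, and it was the lower gene with the smallest p (log2 fold change -1.51 ± 0.22, edgeR adjusted p = 0.000878). In the APP/PS1/FTnKO mice, compared with the same WT mice, it measured 0.328 to 0.748 CPM.

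Cacna1i, a low-threshold calcium channel, measured 135 to 148 CPM in WT and 104 to 122 CPM in APP/PS1 mice, without overlap (log2 fold change -0.28 ± 0.06, edgeR adjusted p = 0.0238). Kcna3 and Kcnb2, potassium channel genes picked after their values were seen, fell by 0.86 and 0.43 on the log2 scale, also without overlap, and Amigo1, which encodes a partner of Kv2 channels, fell by 0.27 with overlap. No list of channel genes was fixed, so no theme is drawn from these members.

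Other lower genes had varied roles. The neuropeptide gene Adcyap1, which encodes PACAP, measured 15.2 to 28.1 CPM in WT and 7.08 to 14.3 CPM in APP/PS1 mice (-0.75 ± 0.17, edgeR adjusted p = 0.0322). Nptx2, a pentraxin that clusters glutamate receptors, was picked after its values were seen and fell by 0.36 on the log2 scale with overlapping groups (edgeR adjusted p = 0.0484). Col12a1, a collagen gene, measured 18.7 to 48.4 CPM in WT and 12.5 to 17.1 CPM in APP/PS1 mice (-0.96 ± 0.21). The microtubule-associated genes Stmn4 and Clasp2 fell by 0.20 and 0.22, and Pcdh20, a protocadherin gene, by 0.50. Mylk3, a myosin light chain kinase gene, measured 2.43 to 4.20 CPM in WT, 1.18 to 2.36 CPM in APP/PS1 and 2.63 to 4.28 CPM in APP/PS1/FTnKO mice. The long noncoding gene Gm15663 fell by 0.56.

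Vascular genes gave 1 call, where 0.178% of all tested genes were called lower. Apln, which encodes the endothelial peptide apelin, measured 35.6, 33.8, 30.7, 27.2 and 22.5 CPM in WT mice and 15.99 to 23.99 CPM in APP/PS1 mice (-0.54 ± 0.11, edgeR adjusted p = 0.0201), and it was the 1 called gene of 18 endothelial genes, whose median was 0.06. Cldn5 and Pecam1, which mark endothelial cells, had 0.02 ± 0.20 and 0.07 ± 0.15. None of 11 pericyte and fibroblast genes was called, with Pdgfrb at 0.04 ± 0.12 and Rgs5 at 0.17 ± 0.13.

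No perivascular macrophage or red blood cell marker was called. None of 7 perivascular macrophage genes was called; they summed to 7.08 to 9.64 CPM in WT mice and 6.64 to 11.4 CPM in APP/PS1 mice, with Mrc1 at -0.07 ± 0.23 and Cd163 at -0.17 ± 0.23. Of 12 blood leukocyte genes 3 passed the filter on low counts, and Ighm, the immunoglobulin M heavy chain, was called (0.48 ± 0.12, edgeR adjusted p = 0.043, overlapping groups). This call was lost with RIN in the model (edgeR adjusted p = 0.401) and with mouse 19622 included (edgeR adjusted p = 0.162). The 5 red blood cell genes had negative log2 fold changes, with a median of -1.64, and none was called. They summed to 49.2 to 1028 CPM in WT mice and 2.67 to 165 CPM in APP/PS1 mice, which overlap. WT mouse 19101 held the highest sum, and the median was -0.36 without it. Markers of striatum, olfactory bulb, choroid plexus, hippocampus, thalamus and cerebellum gave no calls.

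The 6 APP/PS1 mice differed in the size of the response. Of the 230 higher genes, 187 had their lowest APP/PS1 value in mouse 19744 and 29 in mouse 19619, both males, while 128 had the highest value in mouse 16975, a male, and 52 in mouse 19723, a female. For the 31 lower genes, 14 were highest in mouse 19744. RIN followed this order only in part: it was 8.6 and 8.7 in mice 19744 and 19619 and 7.7 in mouse 16975, but 8.3 in mouse 19723, above the 7.9 and 8.1 of mice 19554 and 19553, which held the highest value for 33 and 8 of the genes. Marker sums of other cell types moved with the order as well. Oligodendrocyte genes summed to 3698 and 4936 CPM in mice 19744 and 19619, against 5820 to 7607 CPM in the other 4 APP/PS1 mice, and oligodendrocyte precursor genes to 359 and 419 CPM, against 513 to 574 CPM. Synapse genes summed to 16842 and 15572 CPM in these 2 mice, against 13666 to 14142 CPM, and excitatory neuron genes were highest in mouse 19744, at 7399 CPM. The part of RIN and of these sums in the order was not tested. Across the 6 APP/PS1 mice, Pearson's r between RIN and log2 CPM was -0.787 for Cst7 (exact permutation p = 0.0431, Spearman's rho -0.771, exact p = 0.103) and -0.860 for Gfap (exact permutation p = 0.0403, Spearman's rho -0.771, exact p = 0.103). In the 6 APP/PS1/FTnKO mice r was -0.266 for Cst7 (exact p = 0.617; rho 0.213, exact p = 0.733) and -0.667 for Gfap (exact p = 0.208; rho -0.577, exact p = 0.283). Over these 4 relations, no adjusted p passed 0.05, the smallest being 0.0861 for r and 0.206 for rho by exact permutation. Without the 2 mice farthest from the median RIN, r was -0.826 and -0.775 in APP/PS1 mice and 0.456 and 0.549 in APP/PS1/FTnKO mice, each over 4 mice, so the APP/PS1/FTnKO values rested on those 2 mice.

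**Figure D4:**
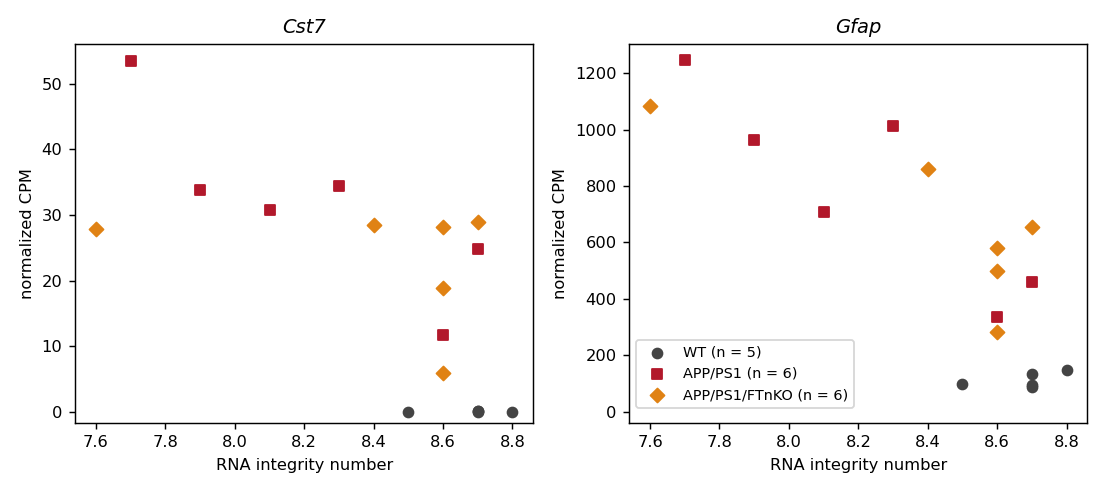
Normalized CPM of Cst7 and Gfap against the RNA integrity number in each of 17 mice, by genotype. The 2 APP/PS1 mice with RIN of 8.6 and 8.7 lie lowest among APP/PS1 mice for both genes and above every WT mouse.

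With RIN added to the model as a covariate, 80 genes were called higher (0.459%) and 4 lower. Of the original calls, 79 of 230 higher genes and 2 of 31 lower genes were still called, and all 261 kept their direction. With RIN in the model, the median of the 230 was 0.78 and that of the 31 was -0.34. By list, 16 of 38 plaque-associated microglia genes were called higher with RIN in the model, with 2 of 14 resting microglia genes, 9 of 34 lysosomal genes, 3 of 21 reactive astrocyte genes, 3 of 15 complement genes and 4 of 17 Fc and pattern receptor genes. Some higher genes described above were still called at smaller values: Cst7 had 8.73, Itgax 5.27, Clec7a 4.61, Trem2 2.02, Gfap 2.07, C4b 2.27 and Ctsd 1.21 on the log2 scale. App was still called at 0.95, above its value without the RIN term. Chrnb3 had -1.69 and was also still called. Of the 65 called genes named here, 33 of 51 higher and 1 of 14 lower were called with RIN in the model. The higher genes that were not were Olfml3, Siglech, C1qc, Fcgr2b, Cxcl10, Aspg, Vim, Lamp2, Nsdhl, Rims1, Ighm, Ccl4, Spi1, Cx3cr1, Csf1r, Stat3, Cybb and Timp1, and each lower gene named here other than Chrnb3 lost its call. With RIN in the model the list medians were 1.04 for plaque-associated microglia, 0.39 for resting microglia, 0.78 for Fc and pattern receptors, 0.19 for complement, 0.53 for class II presentation, 0.24 for lysosomal genes and 0.17 for cholesterol synthesis. The medians of the oligodendrocyte precursor and endothelial lists changed sign, from 0.11 to -0.08 and from 0.06 to -0.06. With mouse 19622 included and no RIN term, 24 of the 38 plaque-associated, 7 of the 14 resting microglia, 15 of the 34 lysosomal and 5 of the 21 reactive astrocyte genes were called higher.

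**Figure D5:**
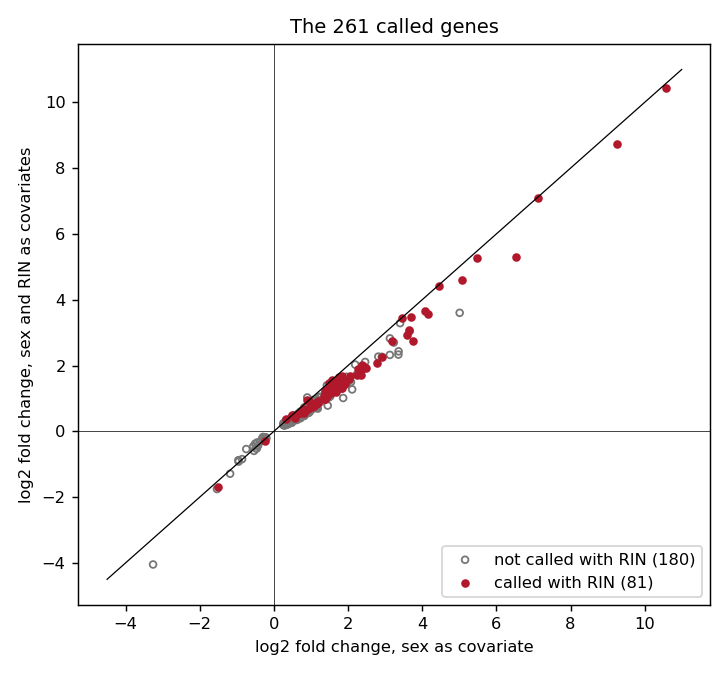
Log2 fold change of the 261 called genes with sex as covariate (x axis) and with sex and RIN as covariates (y axis); filled red points were still called with RIN, open points were not, and the line marks equal values. All 261 points keep their sign, and most of the higher genes lie below the line.

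Females and males were compared for the size of the response, because amyloid load is known to differ between the sexes in this model. No gene of 17414 was called by edgeR for a different response (0%, with 705 genes at an unadjusted p below 0.05), and DESeq2 called 2, with 732 at an unadjusted p below 0.05. Those 2, Prkca and Tdg-ps2, also had the smallest p by edgeR. Prkca, a protein kinase C gene, measured 166.6 to 172 CPM in APP/PS1 females and 244 to 255 CPM in WT females, and 236 to 248 CPM in APP/PS1 males and 219.9 to 259.7 CPM in WT males (edgeR adjusted p = 0.832). Tdg-ps2, a pseudogene, had a difference of -5.70 ± 0.98 between the female and the male log2 fold change (edgeR adjusted p = 0.463), and F730043M19Rik one of -0.63 ± 0.13. Of the 230 higher genes, 190 (82.6%) had a larger log2 fold change in females, against 51.7% of all tested genes, and 6 had an unadjusted p below 0.05. The 2 APP/PS1 mice that were lowest for most of these genes, 19744 and 19619, were males with RIN of 8.6 and 8.7, while the APP/PS1 females had RIN of 7.9 to 8.3, and the part of these mice and of RIN in the count was not tested. Only 2 WT females entered this comparison.

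The APP/PS1/FTnKO mice were compared with the same WT mice, so their values are set beside those of the APP/PS1 mice without a test of likeness. Cst7 measured 5.93 to 28.9 CPM in APP/PS1/FTnKO mice, Trem2 20.0 to 66.8, C4b 85.0 to 319, Gfap 281 to 1082 and Ctsd 199.6 to 431 CPM. The median log2 fold change against WT was 1.04 for the plaque-associated list, 0.21 for the lysosome list, 0.54 for the reactive astrocyte list and -0.59 for the activity-dependent list. In APP/PS1 mice the same medians were 1.39, 0.31, 0.70 and -0.35.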

How the data were processed

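Total RNA of the frontal cortex (Bio-Rad Aurum kit) gave strand-specific poly(A) libraries. Trimming by the authors used Trimmomatic 0.33 with FastQC 0.11.7, alignment to GRCm38 used HISAT2 2.1.0, and featureCounts assigned reads to Ensembl genes. The deposited values are raw counts of 55487 genes in 18 mice, without normalization. How featureCounts treated strand and multi-mapping reads was not given in the sources used here.

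Genes passing filterByExpr (minimum count 10) were tested with edgeR 4.0.16 in R 4.3.3 (TMM scaling, quasi-likelihood F test, sex + genotype) on 17 mice of 3 genotypes, with Benjamini-Hochberg adjustment and a threshold of 0.05. SE is the log2 fold change divided by the square root of F. Totals per mouse limit precision at low counts, and intervals and floors cover counting error only. The edgeR p-values set a difference against the spread between mice, which was estimated over the 3 genotypes with information shared across genes. Alternatives used DESeq2 1.42.0 and limma 3.58.1. Positions come from GENCODE vM21, promoter windows from RefSeq. The edgeR procedure was tested on simulated data.

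The members and the 29 gene lists were chosen with earlier results of these data known. Named genes were in each direction the 12 called genes with the smallest p and a sign that held without any 1 mouse, up to 4 called and the first 2 tested members per list, genes without WT counts, 3 genes of the sex comparison and the label checks. Some genes that this rule names are not reported here. A further 18 were chosen after their values were seen: Apoe, Ccl3, Ccl4, Spi1, Irf8, Kcna3, Kcnb2, Nptx2, Gpnmb, Spp1, Cx3cr1, Csf1r, Grn, Ctss, Stat3, Cybb, Timp1 and Gabrb2.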

Additional observations from a re-analysis of the deposited data

Results flagged for a closer look

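Single mice stood apart from the rest of their group in 16 of 262 groups of values, by Dixon's test at the 95% level, where chance gives about 1 in 20. In WT mice, mouse 18944 held 0.177 CPM of Cst7 against 0 to 0.05 in the other 4. Mouse 19101 held 14.3 CPM of Tyrobp against 10.9 to 11.6, and 0.183 CPM of Ccl3 against 0. Mouse 19718 held 0.1 CPM of Ccl4 against 0, 3.00 CPM of Spp1 against 6.17 to 7.24, 1390 CPM of Slc17a7 against 955 to 1077 and 214 CPM of Gad2 against 291 to 315. In APP/PS1 mice, mouse 16975 held 96.5 CPM of H2-D1 against 20.6 to 45.8 and 9.44 CPM of Ccl3 against 0.94 to 3.53, and mouse 19744 held 393 CPM of Hmgcs1 against 268 to 304.

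Marker sums stood apart as well. Red blood cell genes summed to 1030 CPM in WT mouse 19101 against 49.2 to 167 in the other 4. Choroid plexus genes summed to 462 CPM in APP/PS1 mouse 19554 against 13.8 to 40.2, with the plasma transport gene Ttr at 420 CPM against 0 to 19.4, and to 76.3 CPM in WT mouse 19053 against 9.10 to 15.3, with Ttr at 61.4 CPM against 0 to 0.237. Cerebellar genes summed to 41.6 CPM in APP/PS1 mouse 16975 against 25.3 to 31.01. The part of these sums in the results was not tested.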

How the results depend on the processing

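The main counts were 261 called genes, 230 higher and 31 lower. DESeq2 called 458 (380 higher, 78 lower) and, on the 2 genotypes alone, 478 (376 and 102). Without a filter on low counts 452 were called (369 and 83), and limma-voom called 15 lower. With RIN as a covariate 84 were called (80 and 4), with only mice of RIN 8 or more 120 (116 and 4). With edgeR on the 2 genotypes alone 11 were called lower, and likewise 11 with all 18 mice. DESeq2 called 2 genes for the sex comparison. The other settings stayed within 1.5 times the main counts; the cause of the shifts was not tested.

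Leaving out 1 mouse gave 124 to 465 called genes, 122 to 388 higher and 2 to 77 lower. The total moved by over 1.5 times without APP/PS1 mice 16975 (156 called), 19554 (169), 19723 (154) and 19744 (465), and without WT mice 18944 (148), 19053 (124) and 19718 (166). Of the 65 named genes that were called, 59 were tested in all 22 alternatives, and Asb10, Atp6v0d2, Ccl4, Chrnb3, Cxcl10 and Timp1 in fewer. All 65 kept their sign, and 31 of 51 higher and 1 of 14 lower were called, in every alternative that tested them, and with all 18 mice 45 and 4 were called. No paired analysis was possible because the labels give mouse numbers and no replicate number shared between the groups. Depth limits genes with a mean under 1 CPM in at least 1 group, such as Chrnb3, Ccl4 and Timp1, and the 5 WT mice limit small differences.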

Other observations

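Tdg-ps2, a pseudogene, differed widely within both groups. It measured 3.02, 3.44, 0.366, 0.15 and 0.258 CPM in WT mice 18944, 19053, 19101, 19718 and 19721, and 7.39, 0.186, 3.34, 6.30, 0.504 and 3.88 CPM in APP/PS1 mice 16975, 19553, 19554, 19619, 19723 and 19744.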
